A study of Canis lupus familiaris with 8 samples.

Results

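Genes of fat cells were followed across the adrenal cortex and the pituitary of stressed and unexposed dogs of 2 breeds, the Chinese Field Dog and the Beagle. The set held 9 genes chosen by name: PLIN1, PLIN4, CIDEC, CIDEA, LPL, ADIPOQ, LEP, TNMD and FABP4. Of these, 8 were matched among 24580 rows, 7 by symbol and ADIPOQ through its older symbol APM1 and the name in the description column. FABP4 was not matched and was not analysed here. The 8 libraries of messenger RNA came from adult dogs and formed 8 groups of 1, stressed and unexposed Chinese Field Dog adrenal cortex, stressed and unexposed Beagle adrenal cortex, and the same 4 groups for the pituitary. The exposed arm is labelled as given chronic stress; the label of its counterpart, "non-disposal", was taken to mean no exposure. No genotype, dose or duration is given. Nothing in the labels says whether a library is 1 dog or a pool, or whether both glands came from the same dogs. The extraction note names spleen, against the tissue labels.

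A fat cell stores triglyceride in a lipid droplet and releases fatty acids when stress hormones such as catecholamines and glucocorticoids act on it. Perilipins coat the droplet and govern access of lipases to it, CIDE proteins make droplets grow by fusing them, and lipoprotein lipase supplies the fatty acids from circulating particles. Fat cells also secrete adiponectin and leptin. The adrenal gland lies in fat, and the pituitary is a hormone gland at the base of the brain with no fat depot of its own.

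Each library held between 14327356 and 18712034 recovered reads. Marker genes followed the tissue labels, with adrenal cortex genes (8 measured, such as STAR and CYP17A1) summing to between 22319 and 27483 FPKM in the adrenal libraries and between 47.4 and 79.7 FPKM in the pituitary libraries. FPKM is the authors' read count corrected for gene length and depth. Genes of the adrenal medulla, the inner part of the gland, were present in all 4 adrenal cortex libraries at summed levels between 3191 and 5585 FPKM. The stressed Chinese Field Dog pituitary stood apart, with 8 forebrain genes summing to 1895 FPKM against 211 FPKM in the unexposed one. Each comparison of 2 libraries below has no replicate check and no test. Its counting interval is a 95% Clopper-Pearson interval on the ratio of recovered reads and covers counting error only. A gene was counted as 2-fold different at a difference of at least 1 in log2(FPKM + 1), counting only genes whose FPKM averaged 1 or more over the pair. In whole tissue, fewer fat cells and less RNA per fat cell cannot be told apart.

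In the adrenal cortex the fat-cell genes were lower in the stressed than in the unexposed Beagle library, and most of them were higher in the stressed than in the unexposed Chinese Field Dog library. PLIN1, a perilipin abundant in fat cells, lies at chromosome 3, 52659489 to 52670353 in the deposited coordinates. Whether its reads came from fat cells alone was not tested. PLIN1 read 8.20 FPKM in the stressed and 6.06 FPKM in the unexposed adrenal cortex of the Chinese Field Dog. In the Beagle it read 1.51 FPKM in the stressed library and 11.9 FPKM in the unexposed one, or 34 reads against 240. Its highest and its lowest adrenal value were thus both Beagle libraries, with the Chinese Field Dog pair between them. The stress ratio of PLIN1 was 1.35-fold in the Chinese Field Dog (counting interval 1.08 to 1.70). In the Beagle PLIN1 was 7.87-fold lower under stress (5.46 to 11.6).

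PLIN4, a perilipin of nascent droplets that is also made outside fat, did not follow this opposite pattern. It read 7.95 FPKM in the stressed and 10.2 FPKM in the unexposed adrenal cortex of the Chinese Field Dog, and 6.48 FPKM in the stressed and 17.5 FPKM in the unexposed Beagle one. The stressed library was the lower one in both breeds, 1.29-fold in the Chinese Field Dog (1.13 to 1.43) and 2.70-fold in the Beagle (2.42 to 3.05). Its listed interval on chromosome 20, 55078110 to 55202965, also holds 6 other genes, PLIN5 among them, so its value is uncertain.

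The CIDE genes had the same order of libraries as PLIN1. CIDEC, which makes the single large droplet of the white fat cell, lies at chromosome 20, 8386257 to 8402286. It read 12.4 FPKM in the stressed and 6.93 FPKM in the unexposed adrenal cortex of the Chinese Field Dog, against 4.11 FPKM in the stressed and 22.9 FPKM in the unexposed Beagle one. CIDEC was 1.78-fold higher under stress in the Chinese Field Dog (1.45 to 2.19) and 5.57-fold lower in the Beagle (4.40 to 7.06). CIDEA, best known from brown fat of mice, read 13.1 FPKM in the stressed and 9.44 FPKM in the unexposed adrenal cortex of the Chinese Field Dog, and 4.03 FPKM in the stressed and 20.1 FPKM in the unexposed Beagle one. Its stress ratio was 1.38-fold in the Chinese Field Dog (1.20 to 1.60), while CIDEA was 5.0-fold lower in the Beagle (4.16 to 6.02). For both genes the unexposed Beagle library was the highest and the stressed Beagle library the lowest.

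LPL encodes lipoprotein lipase, which fat cells share with muscle and macrophages, and it was the most abundant of the genes per length in 2 of the 4 adrenal libraries. It read 34.5 FPKM in the stressed and 22.1 FPKM in the unexposed adrenal cortex of the Chinese Field Dog, and 10.4 FPKM in the stressed and 32.5 FPKM in the unexposed Beagle one. The stressed Beagle library stood well under the other 3. LPL was 1.56-fold higher under stress in the Chinese Field Dog (1.37 to 1.72) and 3.12-fold lower in the Beagle (2.64 to 3.55).

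Of the secreted hormones, adiponectin followed the same pattern and leptin was not higher under stress in either breed. ADIPOQ, at chromosome 34, 19398224 to 19408430, read 25.4 FPKM in the stressed and 13.3 FPKM in the unexposed adrenal cortex of the Chinese Field Dog. In the Beagle it read 5.67 FPKM in the stressed and 34.3 FPKM in the unexposed library. ADIPOQ was thus 1.91-fold higher under stress in the Chinese Field Dog (1.58 to 2.30) and 6.05-fold lower in the Beagle (4.66 to 7.86). LEP was rare, with 37 reads in the stressed and 53 in the unexposed adrenal cortex of the Chinese Field Dog, and 2 reads in the stressed and 18 in the unexposed Beagle one. All 4 levels were under 1 FPKM, the highest being 0.616 FPKM in the unexposed Chinese Field Dog. The interval of the LEP stress ratio included 1 in the Chinese Field Dog (0.580 to 1.41), whereas LEP was 10.01-fold lower in the Beagle (2.40 to 88.9).

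TNMD, tenomodulin, a surface protein of tendon cells that human and mouse fat cells also make, had the widest range. It lies at X, 74459193 to 74475057. It read 54.4 FPKM in the stressed and 9.90 FPKM in the unexposed adrenal cortex of the Chinese Field Dog, and 2.21 FPKM in the stressed and 14.2 FPKM in the unexposed Beagle one. The stressed Chinese Field Dog library alone was far above the rest. TNMD was 5.49-fold higher under stress in the Chinese Field Dog (4.71 to 6.42) and 6.45-fold lower in the Beagle (4.60 to 9.18).

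**Figure D1:**
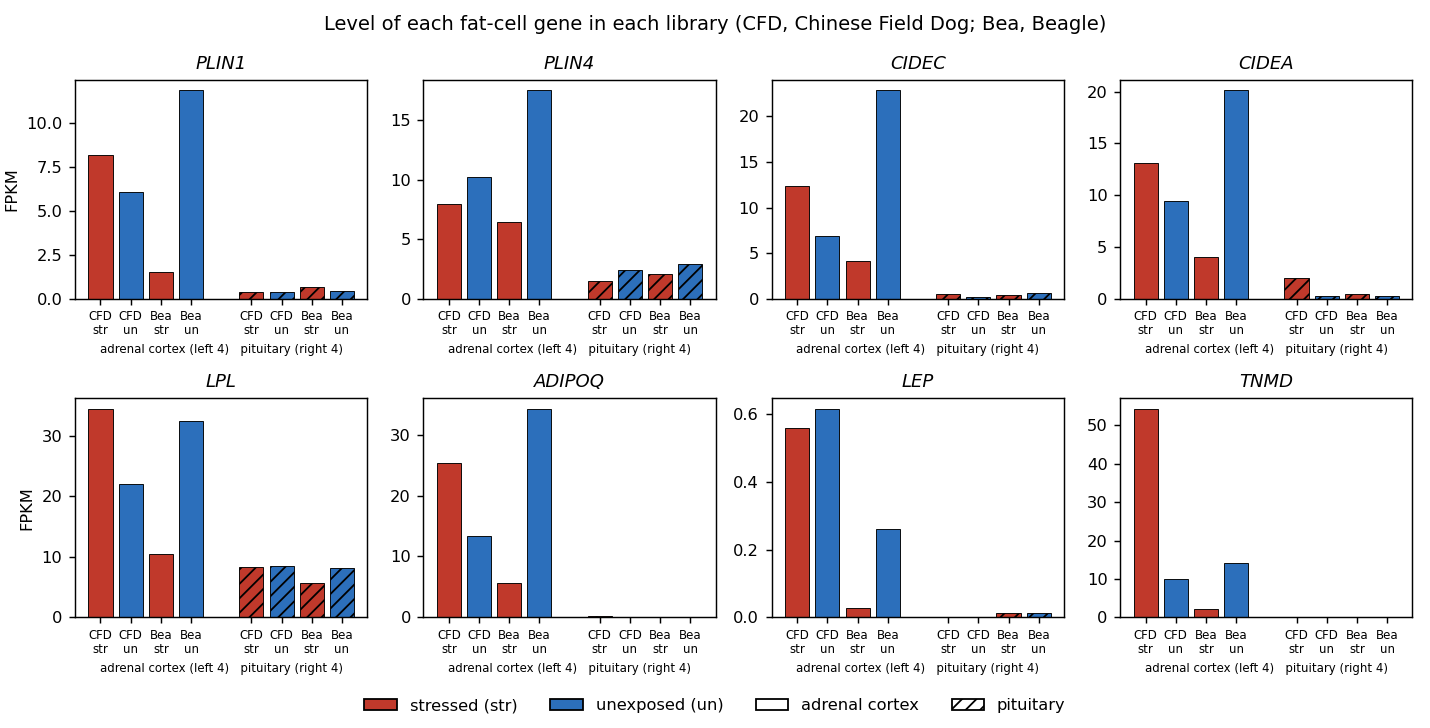
FPKM of each fat-cell gene (vertical axis, linear, own scale per panel) in each of the 8 libraries, 1 bar per library, with adrenal cortex bars plain and pituitary bars hatched. In the adrenal cortex the stressed Beagle bar is the lowest in 8 of 8 panels, and the pituitary bars of ADIPOQ and TNMD are at or near 0.

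Across the set, 7 genes passed the filter on low values in the adrenal cortex, and each of the 7 read more than 1 FPKM in all 4 adrenal libraries, so that none passed through 1 side only. LEP did not pass. In the Chinese Field Dog, 6 of the 7 were higher and 1 lower under stress, and TNMD was the 1 gene at least 2-fold higher, against a background of 0.99% of 13634 genes at least 2-fold higher. The median difference of the 7 was 0.62 in log2(FPKM + 1), beside 0.01 over all genes. In the Beagle, 7 of 7 were at least 2-fold lower under stress, against a background of 2.45% of 13730 genes at least 2-fold lower. Their median was -2.22, beside 0.00 over all genes, and they ran between -2.40 for ADIPOQ and -1.31 for PLIN4. Being higher under stress in the Chinese Field Dog and at least 2-fold lower in the Beagle was met by 6 of the 7 genes, PLIN4 being the exception, and by 0.662% of the 13295 genes that passed in both pairs. This pattern asks for a 2-fold difference in the Beagle only, and the genes were chosen with earlier results of these data known. The shares therefore describe the set and are no test of it.

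**Figure D2:**
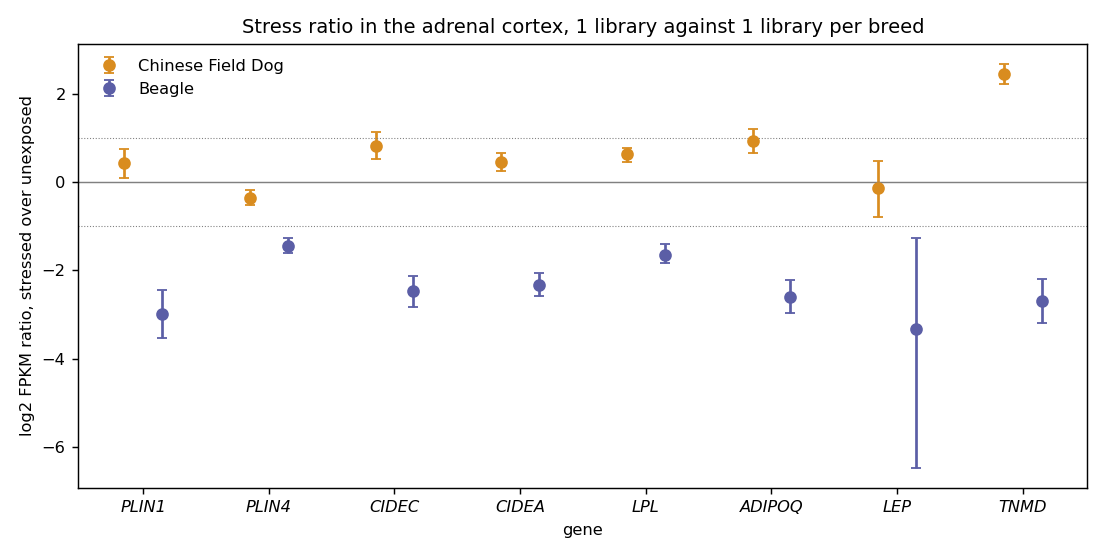
Stress ratio of each fat-cell gene in the adrenal cortex (vertical axis, log2 of stressed over unexposed FPKM) in the Chinese Field Dog and the Beagle, with bars for the 95% counting interval and dotted lines at 2-fold. All 8 Beagle intervals lie below 0, and 6 of the 8 Chinese Field Dog intervals lie above 0.

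Whether the breeds differed in their stress ratio was tested with the glands as replicates of each other, in limma across 14808 genes with 1 residual degree of freedom. None of the 14808 genes passed at an adjusted p of 0.05 (a background of 0%), and 533 had an unadjusted p under 0.05. edgeR called 0 and DESeq2 44, none of them a fat-cell gene. The 7 tested genes all had a positive estimate, the Chinese Field Dog ratio minus the Beagle ratio, between 0.46 for PLIN4 and 2.41 for TNMD in log2 units. Each estimate is the mean of the adrenal and the pituitary difference. PLIN1, CIDEC, ADIPOQ and TNMD had 17 reads or fewer in each pituitary library, so their signs repeat the adrenal ratios above. CIDEA came nearest, at 1.75 with a 95% interval of 0.30 to 3.21 (limma adjusted p = 0.867). Its pituitary part rests on 70 reads in the stressed Chinese Field Dog pituitary, the library with forebrain genes. With the interaction fitted in the adrenal cortex alone, the estimates were 4.59 for TNMD and 3.29 for ADIPOQ. The spread of that fit comes from the pituitary only, where these genes had at most 3 reads per library. It therefore says nothing of the spread in the adrenal cortex, and no p-value is read from it. The breed difference shared by the glands thus did not pass a test across all genes, and the adrenal ratios alone could not be tested. A stress effect shared by the breeds did not pass either. In the adrenal cortex limma called 1 of 14808 genes (0.00675%), not a fat-cell gene, and the estimates of the 7 lay between -0.99 for PLIN1 and 0.05 for TNMD. In the pituitary limma also called 1 gene (0.00675%), again none of these.

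In the authors' deposited table, which sets the same libraries against each other, 3 of 64 p-values for these genes were under 0.05 and no FDR was. The authors' deposited table gives p = 0.01525 for TNMD between the stressed adrenal libraries of the breeds, with an FDR of 0.587, the lowest of the 64. Its remaining p-values under 0.05 are 0.0279 for TNMD under stress in the Chinese Field Dog adrenal cortex and 0.04375 for CIDEA under stress in the Beagle one, again from the authors' deposited table.

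Several of the genes shared an order over the adrenal libraries. For PLIN1, CIDEC, CIDEA and ADIPOQ the order was unexposed Beagle, stressed Chinese Field Dog, unexposed Chinese Field Dog and stressed Beagle, highest first. LPL and TNMD had the stressed Chinese Field Dog first and the unexposed Beagle second, with the same lower 2. PLIN4 had the unexposed above the stressed Chinese Field Dog, and LEP had both Chinese Field Dog libraries above both Beagle ones. The stressed Beagle library was last for 8 of 8 genes. The summed level of the 8 was 156.4 FPKM in the stressed and 78.6 FPKM in the unexposed adrenal cortex of the Chinese Field Dog. In the Beagle it was 34.4 FPKM in the stressed and 153.7 FPKM in the unexposed one. TNMD alone gave 54.4 FPKM of the stressed and 9.90 FPKM of the unexposed Chinese Field Dog sum. It gave 2.21 FPKM of the stressed and 14.2 FPKM of the unexposed Beagle sum.

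Set against PLIN1 within each library, some members kept a near-constant proportion. The FPKM of ADIPOQ was between 2.20 and 3.76 times that of PLIN1 in the 4 adrenal libraries, a 1.71-fold range, while its own level ranged 6.05-fold. CIDEA kept between 1.56 and 2.67 times PLIN1, a 1.72-fold range beside 5.0-fold for its level. CIDEC ranged 2.39-fold relative to PLIN1 and 5.57-fold in level, and LPL 2.52-fold and 3.31-fold. These 4 genes varied less relative to PLIN1 than on their own. So did TNMD (5.52-fold beside 24.6-fold in level) and LEP (5.86-fold beside 23.6-fold), though over wider ranges. PLIN4 varied more relative to PLIN1 (4.43-fold) than in level (2.70-fold). TNMD was between 1.20 and 1.63 times PLIN1 in 3 libraries and 6.63 times PLIN1 in the stressed Chinese Field Dog. LEP was between 0.0682 and 0.102 times PLIN1 in the Chinese Field Dog libraries and between 0.0173 and 0.0221 times in the Beagle ones. PLIN1 itself had 34 reads in the stressed Beagle library, which limits the precision of its proportions there.

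**Figure D3:**
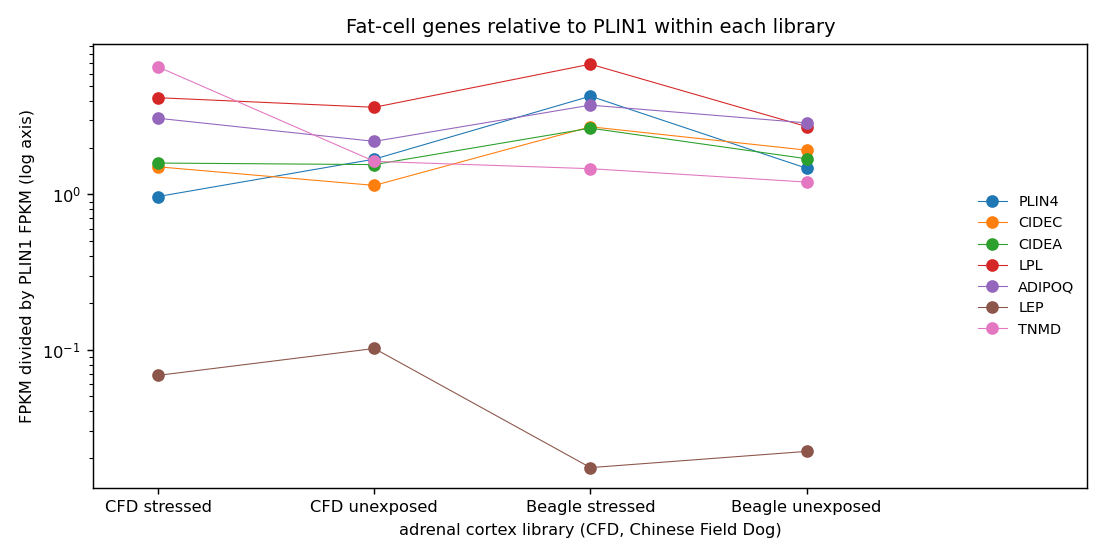
FPKM of each other fat-cell gene divided by the FPKM of PLIN1 in the same adrenal cortex library (vertical axis, logarithmic), with lines joining the points of 1 gene. ADIPOQ and CIDEA stay within a 1.72-fold range, TNMD departs in the stressed Chinese Field Dog library, and LEP is lower in both Beagle libraries.

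Over all 8 libraries, with each gene's log2(FPKM + 1) centred within its gland, Pearson's r between 2 fat-cell genes had a median of 0.73 over 28 pairs and ran between 0.17 and 0.96. The closest pairs were CIDEC with ADIPOQ (0.96), PLIN1 with ADIPOQ (0.96), LPL with ADIPOQ (0.93) and PLIN1 with CIDEC (0.90). The loosest were PLIN4 with LEP (0.17), PLIN4 with TNMD (0.19) and CIDEC with LEP (0.30). These values share the same 8 libraries and their depth. ADIPOQ and TNMD had at most 3 reads in any pituitary library, LEP at most 1, and PLIN1 and CIDEC 17 or fewer. The closest pairs named above therefore rest mainly on the 4 adrenal libraries, where the stressed Beagle was the lowest for each gene. No background of r between other pairs of genes is given here.

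Between the breeds within an exposure, which uses the same libraries as the stress ratios, the fat-cell genes were higher in the stressed Chinese Field Dog and lower in the unexposed one. In the stressed adrenal cortex 7 of 7 were higher in the Chinese Field Dog, 6 of them at least 2-fold, against a background of 1.67% of 13626 genes. TNMD was 24.6-fold higher (18.02 to 34.6), PLIN1 5.44-fold (3.74 to 8.14), ADIPOQ 4.48-fold (3.44 to 5.91), and PLIN4, the exception, 1.23-fold (1.11 to 1.45). In the unexposed adrenal cortex 7 of 7 were lower in the Chinese Field Dog, with CIDEC 3.30-fold lower (2.74 to 3.96), ADIPOQ 2.58-fold lower (2.14 to 3.06) and CIDEA 2.13-fold lower (1.87 to 2.42). These were the 3 that were at least 2-fold lower, against a background of 2.7% of 13744 genes. LEP alone was higher in the unexposed Chinese Field Dog than in the unexposed Beagle, 2.35-fold (1.36 to 4.27) at 53 against 18 reads. Markers of other cells also differed between the unexposed adrenal libraries of the breeds. Medulla genes were lower in the Chinese Field Dog in 8 of 8 cases (median -0.87, beside -0.87 for the fat-cell genes), tendon and fibroblast genes in 8 of 8 (median -0.44) and forebrain genes in 5 of 5 (median -1.15), while macrophage genes were higher in 7 of 7 (median 0.77). Between the stressed adrenal libraries medulla genes were again lower in the Chinese Field Dog in 8 of 8 cases (median -0.71), where the fat-cell genes were higher, and macrophage genes were higher in 6 of 7 (median 0.59). Their part in the breed differences was not tested.

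Markers of other cells were measured in the same adrenal pairs. Endothelial genes were higher under stress in 8 of 8 cases in the Chinese Field Dog (median 0.28 in log2(FPKM + 1)), and 6 of 8 were higher in the Beagle (median 0.18), so that their direction was shared by the breeds where that of the fat-cell genes was not. Medulla genes were lower under stress in 6 of 8 cases in the Chinese Field Dog (median -0.34), and 7 of 8 were lower in the Beagle (median -0.63). They summed to 3191 FPKM in the stressed and 3470 FPKM in the unexposed library of the Chinese Field Dog, and to 4711 FPKM in the stressed and 5585 FPKM in the unexposed Beagle library. Of the tendon and fibroblast genes that passed the filter, 6 were higher and 3 lower under stress in the Chinese Field Dog (median 0.14), with LUM the 1 gene at least 2-fold higher, and 2 were higher and 6 lower in the Beagle (median -0.10). LUM, a matrix protein of fibroblasts chosen after its values were seen, was at 46.0 FPKM in the stressed and 22.2 FPKM in the unexposed library of the Chinese Field Dog. The tendon factor MKX, also chosen after its values were seen, had 1 read there in the stressed and 11 in the unexposed library. These reads are too few to set beside the 873 and 207 of TNMD. Of the forebrain genes that passed, which include SNAP25 of nerve terminals, 1 was higher and 3 were lower under stress in the Chinese Field Dog, and 5 of 5 were lower in the Beagle, 3 of them at least 2-fold. Macrophage genes had a median of -0.29 in the Chinese Field Dog pair, against 0.17 in the Beagle pair. The adrenal cortex genes summed to 27483 FPKM in the stressed and 22377 FPKM in the unexposed library of the Chinese Field Dog, and to 22319 FPKM in the stressed and 23174 FPKM in the unexposed Beagle library. By gene, 7 of 8 adrenal cortex genes were higher under stress in the Chinese Field Dog (median 0.19), and 5 of 8 in the Beagle (median 0.08). The part of these shifts in the fat-cell results was not tested.

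Other genes of fat metabolism were read from lists beside the 9. Of 16 genes of lipid synthesis, 10 were higher and 6 lower under stress in the Chinese Field Dog adrenal cortex, with 1 at least 2-fold higher. In the Beagle 3 were higher and 13 lower, with 5 at least 2-fold lower and a median of -0.58. DGAT2, which makes the last bond of triglyceride, read 24.8 FPKM in the stressed and 10.9 FPKM in the unexposed Chinese Field Dog, and 4.08 FPKM in the stressed and 33.1 FPKM in the unexposed Beagle adrenal cortex. That order across the breeds was the one seen for PLIN1. GPD1, which makes the glycerol backbone, read 24.4 FPKM in the stressed and 19.4 FPKM in the unexposed Chinese Field Dog, against 6.81 FPKM in the stressed and 32.9 FPKM in the unexposed Beagle. PCK1, a source of glycerol in fat and of glucose in liver, was lower under stress in both breeds. It was at 2.11 FPKM in the stressed and 3.17 FPKM in the unexposed Chinese Field Dog, and at 0.702 FPKM in the stressed and 9.51 FPKM in the unexposed Beagle. AGPAT2, an enzyme of the same path whose loss in humans causes lack of fat, read 6.78 FPKM in the stressed and 6.36 FPKM in the unexposed Chinese Field Dog, and 2.61 FPKM in the stressed and 7.61 FPKM in the unexposed Beagle.

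Regulators of fat-cell formation and insulin action had medians of 0.11 in the Chinese Field Dog, against -0.27 in the Beagle adrenal cortex, in log2(FPKM + 1). Of 14 that passed the filter, 8 were higher and 6 lower under stress in the Chinese Field Dog adrenal cortex, none 2-fold. In the Beagle 2 were higher and 12 lower, with 2 at least 2-fold lower. PPARG, the nuclear receptor that directs fat-cell formation, read 4.97 FPKM in the stressed and 4.37 FPKM in the unexposed Chinese Field Dog, and 3.28 FPKM in the stressed and 7.42 FPKM in the unexposed Beagle. CEBPA, its partner factor, read 4.05 FPKM in the stressed and 4.58 FPKM in the unexposed Chinese Field Dog, and 2.50 FPKM in the stressed and 6.58 FPKM in the unexposed Beagle, on 35 reads or fewer. CAV1, the main coat protein of surface pits called caveolae, read 56.8 FPKM in the stressed and 36.3 FPKM in the unexposed Chinese Field Dog, and 28.9 FPKM in the stressed and 51.6 FPKM in the unexposed Beagle. CEBPB, an early factor of fat-cell formation that many tissues make, read 38.1 FPKM in the stressed and 36.3 FPKM in the unexposed Chinese Field Dog, and 33.6 FPKM in the stressed and 48.7 FPKM in the unexposed Beagle. KLF15, a glucocorticoid-induced factor, went the other way in the Beagle, at 10.2 FPKM in the stressed and 4.91 FPKM in the unexposed library. The 2 genes at least 2-fold lower in the Beagle were CEBPA and TUSC5. TUSC5 had 2 reads in the stressed and 28 in the unexposed Beagle library and was chosen after its values were seen.

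Among genes of fat breakdown and the droplet that passed the filter, none of 9 in the Chinese Field Dog and none of 8 in the Beagle adrenal cortex differed by 1 or more in log2(FPKM + 1). PNPLA2, the lipase that starts triglyceride breakdown, read 46.6 FPKM in the stressed and 49.2 FPKM in the unexposed Chinese Field Dog, and 39.8 FPKM in the stressed and 58.2 FPKM in the unexposed Beagle. MGLL, the lipase that ends it, read 8.43 FPKM in the stressed and 7.22 FPKM in the unexposed Chinese Field Dog, and 8.33 FPKM in the stressed and 10.7 FPKM in the unexposed Beagle. PDE3B, through which insulin restrains fat breakdown, read 3.73 FPKM in the stressed and 2.79 FPKM in the unexposed Chinese Field Dog, and 1.15 FPKM in the stressed and 2.92 FPKM in the unexposed Beagle. As a ratio of FPKM, PDE3B was 2.55-fold lower under stress in the Beagle (1.75 to 3.74), and its difference was -0.87 in log2(FPKM + 1). PLIN3, a droplet coat protein of most cells, was higher under stress in both breeds, by 0.28 in log2(FPKM + 1) in the Chinese Field Dog, against 0.62 in the Beagle. LIPE, the hormone-sensitive lipase, was not matched and was not analysed here.

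Other secreted factors and receptors for the fat hormones were measured too. All 7 that passed the filter were higher under stress in the Chinese Field Dog adrenal cortex, 1 of them 2-fold, and in the Beagle 2 were higher and 5 lower. RBP4, the retinol carrier made by liver and fat and the 1 gene past 2-fold, chosen here after its values were seen, read 1685 FPKM in the stressed and 637 FPKM in the unexposed Chinese Field Dog, and 1111 FPKM in the stressed and 1163 FPKM in the unexposed Beagle. The adiponectin receptor genes ADIPOR1 and ADIPOR2 differed by 0.22 and 0.06 in log2(FPKM + 1) in the Chinese Field Dog and by -0.09 and -0.18 in the Beagle. The leptin receptor gene LEPR was higher under stress in both breeds, by 0.33 in the Chinese Field Dog, against 0.49 in the Beagle on that scale. RETN, the gene of resistin, was likewise higher in both, by 0.92 and 0.61. The complement factor D gene, which encodes the protease adipsin, was at 11.01 FPKM in the stressed and 7.20 FPKM in the unexposed Chinese Field Dog, and at 9.06 FPKM in the stressed and 13.0 FPKM in the unexposed Beagle.

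Of the brown-fat genes that passed the filter, none was 2-fold different under stress in the adrenal cortex of either breed. UCP1, which uncouples respiration in brown fat, had 74 reads in the stressed and 13 in the unexposed Chinese Field Dog library, and 58 in the stressed and 72 in the unexposed Beagle one. Its difference in the Chinese Field Dog was 1.11 in log2(FPKM + 1), at 1.64 FPKM in the stressed and 0.221 FPKM in the unexposed library, and it was not counted because the pair averaged under 1 FPKM. The brown-fat genes EBF2 and PPARGC1A, a progenitor factor and a driver of mitochondrial growth, read at most 1.17 FPKM in any adrenal library. COX7A1, a respiratory subunit, was at 244 FPKM in the stressed and 179 FPKM in the unexposed Chinese Field Dog, and at 232 FPKM in the stressed and 206 FPKM in the unexposed Beagle. Among the fat progenitor and stroma genes, THY1 was the 1 gene 2-fold lower under stress in the Beagle adrenal cortex, at 24.0 FPKM in the stressed and 55.9 FPKM in the unexposed library. THY1 is also a gene of nerve cells. PDGFRB, a receptor of progenitors and vessel-wall cells, was 0.39 lower in log2(FPKM + 1) under stress in the Chinese Field Dog and 0.21 higher in the Beagle.

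**Figure D4:**
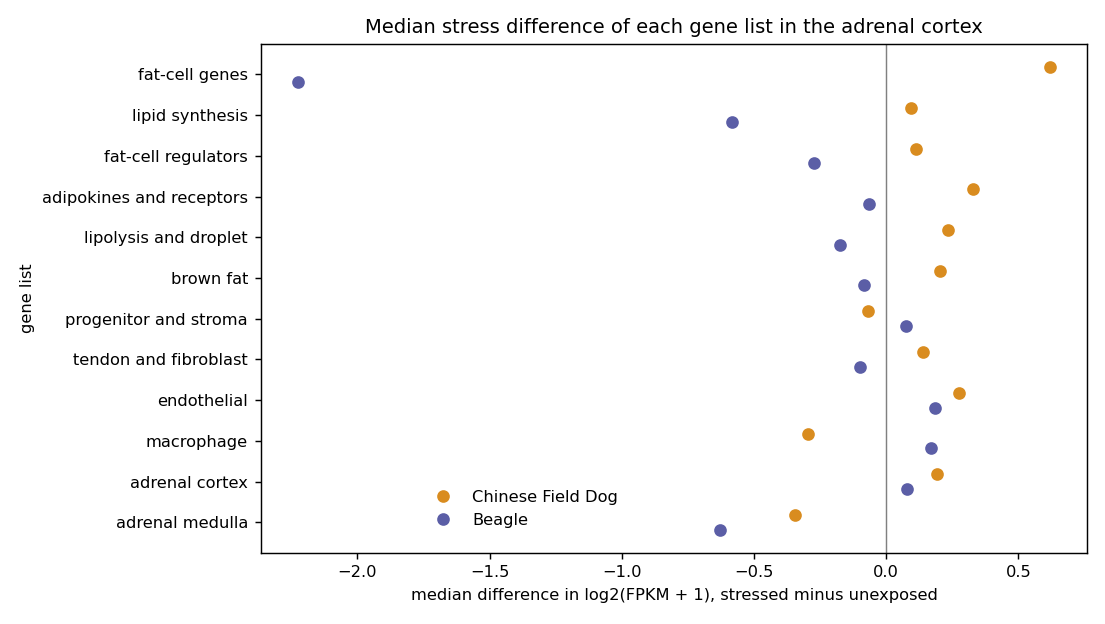
Median difference in log2(FPKM + 1), stressed minus unexposed, of each gene list in the adrenal cortex (horizontal axis) for the Chinese Field Dog and the Beagle, over the genes of the list that passed the filter. Of the lists drawn, the fat-cell genes lie farthest from 0 in both breeds, at 0.62 in the Chinese Field Dog, against -2.22 in the Beagle.

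The genes most like the set were ranked by Pearson's r over the 8 libraries, after centring within glands, with the mean of PLIN4, CIDEA and LPL, the 3 members with 50 reads or more in at least 1 library of each gland. CIDEA reached that in the pituitary only in the stressed Chinese Field Dog, with 70 reads, and had 10 to 17 reads in the other pituitary libraries. The 10 highest of 11006 genes were ELOVL5 (r = 0.97), HSP90AA1, SLC22A4, UBE2S, DGAT2 (0.94), CUL1, CD83, PDGFA, EIF2B3 and GYG1 (0.92). Except for DGAT2 these genes varied little, and ELOVL5, an enzyme that lengthens polyunsaturated fatty acids, read 123 FPKM in the stressed and 111 FPKM in the unexposed adrenal cortex of the Chinese Field Dog, and 97.7 FPKM in the stressed and 134 FPKM in the unexposed Beagle one. Among 634 genes with an SD of at least 0.5, a minimum added after the values were seen, DGAT2 came first and GPD1 (0.89) second. The stress-induced chaperone gene HSPA1 (0.81) and FABP3 (0.80), a fatty-acid carrier of heart and muscle, came next, then PDZD2, TSPAN8, REEP1, PYCR1, NFIL3 and SLC25A25 (0.72). The median r of the 634 was 0.26. FABP3 read 8.87 FPKM in the stressed and 8.81 FPKM in the unexposed adrenal cortex of the Chinese Field Dog, and 4.35 FPKM in the stressed and 36.0 FPKM in the unexposed Beagle one. In the adrenal cortex it thus shared the low stressed Beagle value and not the difference within the Chinese Field Dog. In the pituitary FABP3 read 74.6 FPKM in the stressed Chinese Field Dog, the library with forebrain genes, and 21.1 FPKM in the unexposed one. In the Beagle pituitary it read 14.8 FPKM in the stressed and 16.2 FPKM in the unexposed library. The part of the pituitary values in its r was not tested.

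In the pituitary the set was low, and only LPL and PLIN4 read above 1 FPKM in all 4 libraries. LPL read 8.37 FPKM in the stressed and 8.53 FPKM in the unexposed Chinese Field Dog, and 5.73 FPKM in the stressed and 8.09 FPKM in the unexposed Beagle. PLIN4 read 1.53 FPKM in the stressed and 2.41 FPKM in the unexposed Chinese Field Dog, and 2.05 FPKM in the stressed and 2.91 FPKM in the unexposed Beagle. PLIN4 was again the lower under stress in both breeds. PLIN1 and CIDEC stayed under 1 FPKM in each pituitary library, with 17 reads or fewer. ADIPOQ had 2 reads and TNMD 3 reads in the stressed Chinese Field Dog pituitary and 0 in the other 3 libraries, where a count of 0 allows up to 3 reads. LEP had 1 read in each Beagle pituitary and 0 in each Chinese Field Dog one.

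CIDEA was the 1 fat-cell gene counted as 2-fold different under stress in the pituitary, and it passed the filter only through the stressed Chinese Field Dog library, where it was high. It read 1.99 FPKM in the stressed and 0.312 FPKM in the unexposed Chinese Field Dog, or 70 reads against 12, and was 6.37-fold higher (3.43 to 12.9). In the Beagle it read 0.439 FPKM in the stressed and 0.267 FPKM in the unexposed library. The stressed Chinese Field Dog pituitary was also the library with forebrain genes, where 8 of 8 of them were at least 2-fold higher under stress, and the part of that in the CIDEA value was not tested. The background there was 7.85% of 14720 genes at least 2-fold higher under stress. In the Beagle pituitary none of the 2 genes that passed the filter was 2-fold different, against a background of 2.35% of 14366 genes. Between the stressed pituitaries CIDEA was 4.52-fold higher in the Chinese Field Dog than in the Beagle (2.65 to 8.24), where 8.73% of 14670 genes were at least 2-fold higher. It passed the filter through the same library there, so neither CIDEA count is read against its background. Between the unexposed pituitaries none of the 2 genes that passed was 2-fold different, beside 3.44% of 14460 genes. PLIN1, CIDEC, ADIPOQ and TNMD had 17 reads or fewer in each pituitary library, so opposite stress ratios were not detectable for them at this depth. This also held for LEP, with at most 1 read. LPL, at 137 reads or more, was 0.98-fold in the Chinese Field Dog (0.83 to 1.24) and 1.41-fold lower in the Beagle (1.19 to 1.86). LPL thus did not repeat its opposite adrenal ratios. PLIN4 was lower under stress in both breeds. CIDEA was higher in both, in the Beagle on 17 against 10 reads.

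Between the glands the set was higher in the adrenal cortex. ADIPOQ averaged 19.7 ± 12.7 FPKM in the adrenal cortex and 0.0401 ± 0.0802 FPKM in the pituitary (SD, n = 4 each). LPL averaged 24.9 ± 11.1 FPKM in the adrenal cortex and 7.68 ± 1.31 FPKM in the pituitary, and PLIN1 averaged 6.91 ± 4.33 and 0.470 ± 0.156 FPKM in the same order. The 4 adrenal values lay above the 4 pituitary values for each of the 8 genes. In limma with the 4 libraries of a gland as its replicates, 7 of 7 tested genes were higher in the adrenal cortex, between 1.46 for LPL (limma adjusted p = 0.00697) and 4.06 for ADIPOQ (limma adjusted p = 0.000152) in log2 units. The background was 30.9% of 14808 genes called higher in the adrenal cortex. PLIN1, CIDEC, CIDEA, ADIPOQ and TNMD averaged under 1 FPKM in the pituitary and passed the filter through the adrenal cortex only, so the count over the set is not support for a difference of the set. LEP was under the filter and was not tested. These p-values measure the spread over breeds and exposures, 1 library each, and nothing states that the libraries are separate animals.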

How the data were processed

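Messenger RNA of 8 libraries was prepared with the TruSeq kit and read on the Genome Analyzer IIx, per the labels. Alignment with TopHat to CanFam3.1 is per the submitters' processing notes; the counting program and annotation are not given in the sources used here. The authors' deposited tables give a scaled count per gene and library, a signal equal to reads divided by a size factor. They also give the authors' FPKM, and the authors' p-values and FDR, which are used only where named. Between 99.5% and 99.6% of scaled values below 1000 reads were whole within 0.02 after division by the library's step. In 2 stressed libraries, Beagle adrenal and Chinese Field Dog pituitary, recovered reads are approximate. Coordinates are those of the deposited tables.

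Stress ratios are differences in log2(FPKM + 1), and a fold is a ratio of FPKM. This scale understates the change of low genes. Tests used limma 3.58.1 (R 4.3.3) with log2(FPKM + 1) as the response, for genes where the mean FPKM over 8 libraries was at least 1, with Benjamini-Hochberg adjustment over all 14808 genes. The threshold was an adjusted p of 0.05. Models were a gland term, a breed by stress interaction shared by the glands, and a stress term per gland. edgeR 4.0.16 (quasi-likelihood) and DESeq2 1.42.0 on recovered reads, other pseudocounts and filters, and leaving out libraries were alternatives, and the fits were tested on simulated data. The members and lists were chosen with earlier results of these data known. Beside the 9 members, up to 4 genes per fat list with 50 reads or more in 1 library were named in order of their stress ratio in the Beagle adrenal cortex, with 8 fixed genes (PPARG, CEBPA, LIPE, PNPLA2, UCP1, LEPR, ADIPOR1 and ADIPOR2) and the 10 genes most alike. Other names were chosen after their values were seen.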

Additional observations from a re-analysis of the deposited data

Results flagged for a closer look

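The stress ratios of 6 fat-cell genes in the adrenal cortex pointed opposite ways in the breeds, each with a counting interval that left out 1. The share of all genes that met this rule is not given here, so the count of 6 describes these genes only. A different rule, higher in the Chinese Field Dog and at least 2-fold lower in the Beagle, was met by 0.662% of 13295 genes. The Chinese Field Dog difference minus the Beagle difference in log2(FPKM + 1) was 4.59 for TNMD, 3.29 for ADIPOQ, 2.98 for CIDEC, 2.74 for PLIN1, 2.50 for CIDEA and 2.17 for LPL. Each breed gave 1 library per exposure. The interaction shared by the glands did not pass for any of them (limma adjusted p = 0.867 for each of the 6).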

How the results depend on the processing

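The stress ratio of each fat-cell gene kept its direction where it was 2-fold, and the counts of 2-fold fat-cell genes stayed at 1 and 7 in the Chinese Field Dog and Beagle adrenal cortex and at 1 and 0 in the pituitaries, under a pseudocount of 0.1, TMM-scaled reads, no filter and a minimum of 50 reads. Over all genes the counts moved. With a pseudocount of 0.1 they were 548 in the Beagle pituitary (338 before) and 450 in the Chinese Field Dog adrenal cortex (275 before). With at least 50 reads they were 117 and 265 in the Chinese Field Dog and Beagle adrenal cortex and 185 in the Beagle pituitary, against 275, 450 and 338, since fewer genes were counted. The gland test called 8924 genes, 8686 with breed and exposure as a replicate block, and between 8200 and 9407 without 1 library each. All 7 fat-cell genes stayed called in each of these fits and with edgeR and DESeq2. PLIN1, CIDEC, CIDEA, ADIPOQ and TNMD passed the filter through the adrenal cortex only. Their staying called is therefore not support for a difference of the set. Libraries of the same breed and exposure had r between -0.0242 and 0.17 across the glands. The values of the stressed Beagle (0.17) and the unexposed Chinese Field Dog (0.127) lay above each unmatched pairing (at most 0.0616). These r cannot show whether both glands came from the same dogs, and the libraries were not taken as paired. The interaction shared by the glands called 0 genes, and 44 with DESeq2, with no fat-cell gene among them. Fitted in the adrenal cortex alone, the interaction called 43, but the spread of that fit comes from the pituitary only. That count therefore says nothing of the fat-cell genes in the adrenal cortex, whether called or not. The stress effect shared by the breeds called 1 gene in the adrenal cortex, 4 with a pseudocount of 0.1, 0 without a filter, 0 with edgeR, 11 with DESeq2, and between 23 and 26 without 1 breed. In the pituitary it called 1, 0 with edgeR, 68 with DESeq2, and between 41 and 44 without 1 breed. The cause of these moves was not tested. With 1 library per group, depth limits LEP everywhere and PLIN1, CIDEC, CIDEA, ADIPOQ and TNMD in the pituitary.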

Other observations

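DLK1, a gene of fat progenitors that endocrine cells also express, was a pituitary gene in these libraries. It had 6 reads or fewer in each adrenal library. In the pituitary it read 3.74 FPKM in the stressed and 15.99 FPKM in the unexposed Chinese Field Dog, and 7.14 FPKM in the stressed and 19.4 FPKM in the unexposed Beagle, so that the stressed library was the lower one in both breeds. PI16, a gene of stromal progenitors around vessels, read 4.45 FPKM in the stressed and 13.7 FPKM in the unexposed Chinese Field Dog pituitary, and 9.96 FPKM in the stressed and 6.47 FPKM in the unexposed Beagle one. UCP1 was more abundant in the pituitary than in the adrenal cortex in all 4 pairs of breed and exposure. It read 7.96 FPKM in the stressed and 3.30 FPKM in the unexposed Chinese Field Dog pituitary, and 6.40 FPKM in the stressed and 9.53 FPKM in the unexposed Beagle one.

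Some lipid genes were higher in the stressed Chinese Field Dog pituitary, the library with forebrain genes. SCD, the desaturase that makes monounsaturated fatty acids, read 100.4 FPKM in the stressed and 24.8 FPKM in the unexposed library, and MGLL read 15.6 FPKM in the stressed and 3.13 FPKM in the unexposed one. THY1 read 124 FPKM in the stressed and 22.0 FPKM in the unexposed library. DGAT2 read 21.0 FPKM in the stressed and 9.60 FPKM in the unexposed library, and in the Beagle pituitary it read 11.1 FPKM in the stressed and 18.5 FPKM in the unexposed one. The part of forebrain tissue in these values was not tested.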
